A study of Mus musculus with 16 samples.

Results

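The genes described here are 35 mouse genes of brain endothelial cells, the cells that line blood vessels, and of the blood-brain barrier they form. They are a list of gene symbols, set by cell type and role and by no threshold on a measured value. The list was chosen with earlier results of these data known, so its shares beside all genes are descriptive. All 35 were found among the 38924 genes counted, and all 35 were among the 18111 genes with enough reads to be tested. In the brain, endothelial cells are sealed to one another by tight junctions, of which claudin 5 is a main strand protein, and carry selective transporters for glucose, amino acids, lactate, lipids and thyroid hormone together with pumps that return drugs to the blood. Vascular endothelial growth factors acting on the receptors encoded by Kdr, Flt1 and Flt4, and angiopoietins acting on Tie2, encoded by Tek, control growth, permeability and quiescence of these cells. Wnt ligands made by neural cells, acting through beta-catenin, switch on many barrier genes during development.

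The study measured polyA RNA in the periaqueductal gray, a midbrain region of the descending pain pathway, of male mice, and asked how tolerance to morphine and the protein RGSz1, encoded by Rgs20, shape gene expression there. Its 16 libraries fell into 4 groups of 4: RGSz1 knockout mice given morphine, wild-type mice given morphine, naive RGSz1 knockout mice and naive wild-type mice. Each library pooled tissue punches of 2 animals, and the age of the animals and the morphine dose are not given in the labels. No group is labelled as given vehicle, so handling and dosing cannot be told apart from the drug. Rgs20 itself stood at 11.4 to 14.0 CPM (counts scaled to a common library size, TMM-scaled) in the libraries labelled knockout. It stood at 11.6 to 14.4 CPM in wild type, so the counts of Rgs20 do not separate the genotype labels. Counts per gene do not show which exon was targeted, so the label could not be checked from them. Some other genes did differ between the labels, as described below. The groups labelled knockout are called knockout-labelled in what follows.

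Total counts over genes ranged from 19.1 to 38.9 M in knockout-labelled morphine, 28.4 to 53.9 M in wild-type morphine, 27.7 to 55.0 M in knockout-labelled naive and 26.5 to 50.3 M in wild-type naive libraries. The lowest raw count of any of the 35 genes in any library was 14, for Sox7. The tissue was a punch of unsorted brain, so each value mixes all cell types present; fewer endothelial cells and less RNA per endothelial cell cannot be told apart. A few of the 35 genes are also used by other brain cells, among them Tjp1, Slc2a1, Slc16a1 and Slc7a5. Libraries stood apart in markers of the meninges, the membranes around the brain: the summed level of 14 meningeal fibroblast genes was 477.1 CPM in knockout-labelled morphine 3, 257.2 CPM in knockout-labelled morphine 1 and 643.8 CPM in wild-type naive 2, against 146.0 to 174.9 CPM in the other 13 libraries. Knockout-labelled morphine 3 was also the highest library of its group for 29 of the 35 endothelial genes. The counts of endothelial genes called are given with and without these libraries.

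Promoter windows from RefSeq (GRCm38.p6, 250 bases before to 50 after a start site) were held for 24 of the 35 genes, as 32 windows. Those of the pair of genes with the largest average decrease under morphine, Cldn5 and Kdr, and of the pair with the largest average increase, Mfsd2a and Slc2a1, are shown because these members moved in opposite directions. Each runs 5′ to 3′ on the gene's own strand, and capitals mark matches to any of 8 searched words, read on either strand: ACAGGAA and CCGGAA (ETS factors), ACAAAG and ACAATG (SOX factors), CTTTGA (the TCF/LEF factors of Wnt signalling), the glucocorticoid response element, ACGTG (hypoxia factors) and CACGTG (E-box, which contains ACGTG).
Cldn5, chr16:18776597-18776896, plus strand: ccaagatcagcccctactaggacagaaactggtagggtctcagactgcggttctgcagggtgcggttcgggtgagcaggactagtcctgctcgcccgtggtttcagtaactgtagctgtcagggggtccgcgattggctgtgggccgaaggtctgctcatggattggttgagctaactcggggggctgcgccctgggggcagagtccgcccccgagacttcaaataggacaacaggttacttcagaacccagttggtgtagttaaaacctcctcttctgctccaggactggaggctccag
Kdr, chr5:75978406-75978705, minus strand: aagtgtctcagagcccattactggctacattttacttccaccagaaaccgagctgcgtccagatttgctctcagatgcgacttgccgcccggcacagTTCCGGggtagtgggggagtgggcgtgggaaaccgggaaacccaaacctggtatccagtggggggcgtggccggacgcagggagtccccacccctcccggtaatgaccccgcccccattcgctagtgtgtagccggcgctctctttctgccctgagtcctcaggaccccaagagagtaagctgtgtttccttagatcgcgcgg
Mfsd2a, chr4:122961139-122961438, minus strand: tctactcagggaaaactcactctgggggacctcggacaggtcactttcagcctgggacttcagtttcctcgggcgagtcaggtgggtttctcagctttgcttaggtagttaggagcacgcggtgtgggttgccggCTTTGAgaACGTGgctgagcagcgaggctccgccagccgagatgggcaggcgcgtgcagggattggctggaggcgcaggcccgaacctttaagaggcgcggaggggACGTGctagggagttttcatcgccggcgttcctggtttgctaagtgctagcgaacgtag
Slc2a1, chr4:119108495-119108794, plus strand: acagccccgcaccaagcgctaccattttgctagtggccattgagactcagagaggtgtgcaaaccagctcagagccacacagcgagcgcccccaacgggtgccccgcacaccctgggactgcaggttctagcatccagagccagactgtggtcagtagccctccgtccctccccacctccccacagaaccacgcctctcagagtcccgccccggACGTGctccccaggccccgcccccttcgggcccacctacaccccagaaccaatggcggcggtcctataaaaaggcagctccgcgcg
The Cldn5 window held none of the words, the Kdr window held CCGGAA on the opposite strand, the Slc2a1 window held ACGTG, and the Mfsd2a window held CTTTGA and 2 copies of ACGTG. Among all 32 windows of the 24 genes, ACGTG was present in 7 (21.9%), against 19.6% of the 32851 windows of all genes. ACAAAG was present in 7 (21.9%), against 18.7% of all windows, and CTTTGA in 4 (12.5%), against 16% of all windows. The ETS word ACAGGAA was present in 6 (18.8%), against 8.67%, those 6 belonging to Abcg2, Egfl7, Emcn and Tie1, while the other ETS word, CCGGAA, was present in 2 (6.25%), against 14.9%. ACAATG was in 3 (9.38%), against 12.6%, CACGTG in 3 (9.38%), against 7.15%, and the glucocorticoid response element in none, against 0.00913% of all windows. A match is a run of letters in this window and says nothing of whether a factor bound there.

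Levels per length differed widely among the 35 genes. In wild-type naive libraries, the membrane protein gene Itm2a and the glucose transporter gene Slc2a1 were highest, at 34.1 ± 7.24 and 30.1 ± 1.32 CPM per kb of exon (mean ± SD, n = 4), and their ranges overlapped. The next were Slc7a5 at 17.0 ± 1.21, Tjp1 at 16.0 ± 0.521 and Mfsd2a at 15.7 ± 1.75 CPM per kb, 3 neighbours whose spreads overlap, and Cldn5 ranked eighth in this group at 11.8 ± 2.93 CPM per kb. The transporters at the vessel wall, Slco1a4, Slco1c1 and Abcb1a, followed at 7.82 ± 0.717, 7.19 ± 0.779 and 5.79 ± 0.660 CPM per kb. Pan-endothelial adhesion genes were lower, with Pecam1 at 2.79 ± 0.423 and Cdh5 at 2.67 ± 0.774 CPM per kb. Lowest were the transcription factor genes Sox7, at 0.299 ± 0.0595, and Foxq1, at 0.246 ± 0.0534 CPM per kb.

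**Figure D1:**
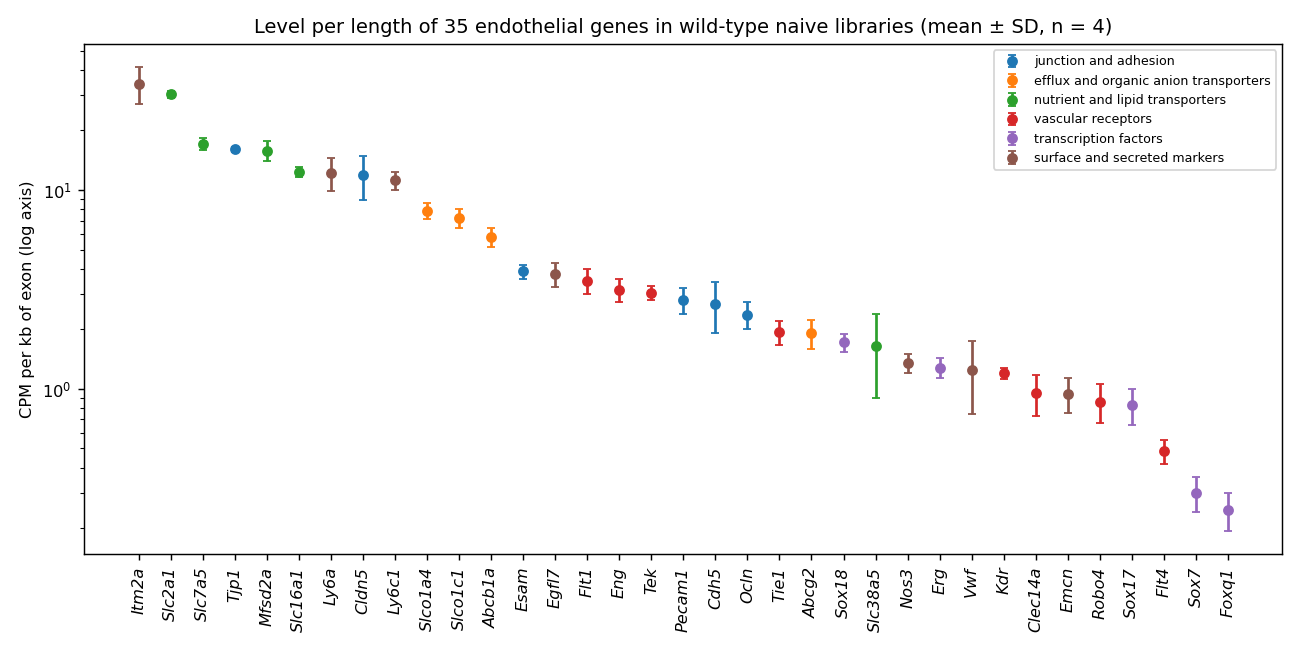
Level of each of the 35 endothelial genes in the 4 wild-type naive libraries, as CPM per kb of exon on a log axis, as mean ± SD (n = 4) and coloured by role. Levels run from 34.1 for Itm2a to 0.246 for Foxq1, with the transcription factor genes Sox7 and Foxq1 lowest.

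Under morphine most of the 35 genes leaned lower in each genotype, while the glucose and lipid transporter genes Slc2a1 and Mfsd2a leaned higher. In knockout-labelled libraries, morphine against naive, 9 of the 35 genes fell and 1 rose (28.6% called, against 11.5% of all genes tested; 5.83% of all genes fell and 5.67% rose). In wild type, 6 fell and 2 rose (22.9% called, against 4.41% of all genes; 2.07% fell and 2.34% rose). The median log2 fold change over the 35 genes was -0.26 in knockout-labelled and -0.19 in wild-type libraries, beside -0.00034 and -0.0068 over all tested genes. Estimates were below 0 for 28 genes in both genotypes and above 0 in both for 3, Slc2a1, Mfsd2a and Slc7a5. Called in both were Cldn5, Kdr, Tek and Slco1a4, which fell, and Mfsd2a, which rose; these 5 are 50% of the knockout-labelled calls and 62.5% of the wild-type calls. Calls here mean a Benjamini-Hochberg adjusted p under 0.05 over all genes in edgeR's quasi-likelihood test, and fold changes are given as log2 ± SE, morphine over naive. The labels call the 4 libraries of a group biological replicates, so p-values measure the spread among pools of 2 animals.

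**Figure D2:**
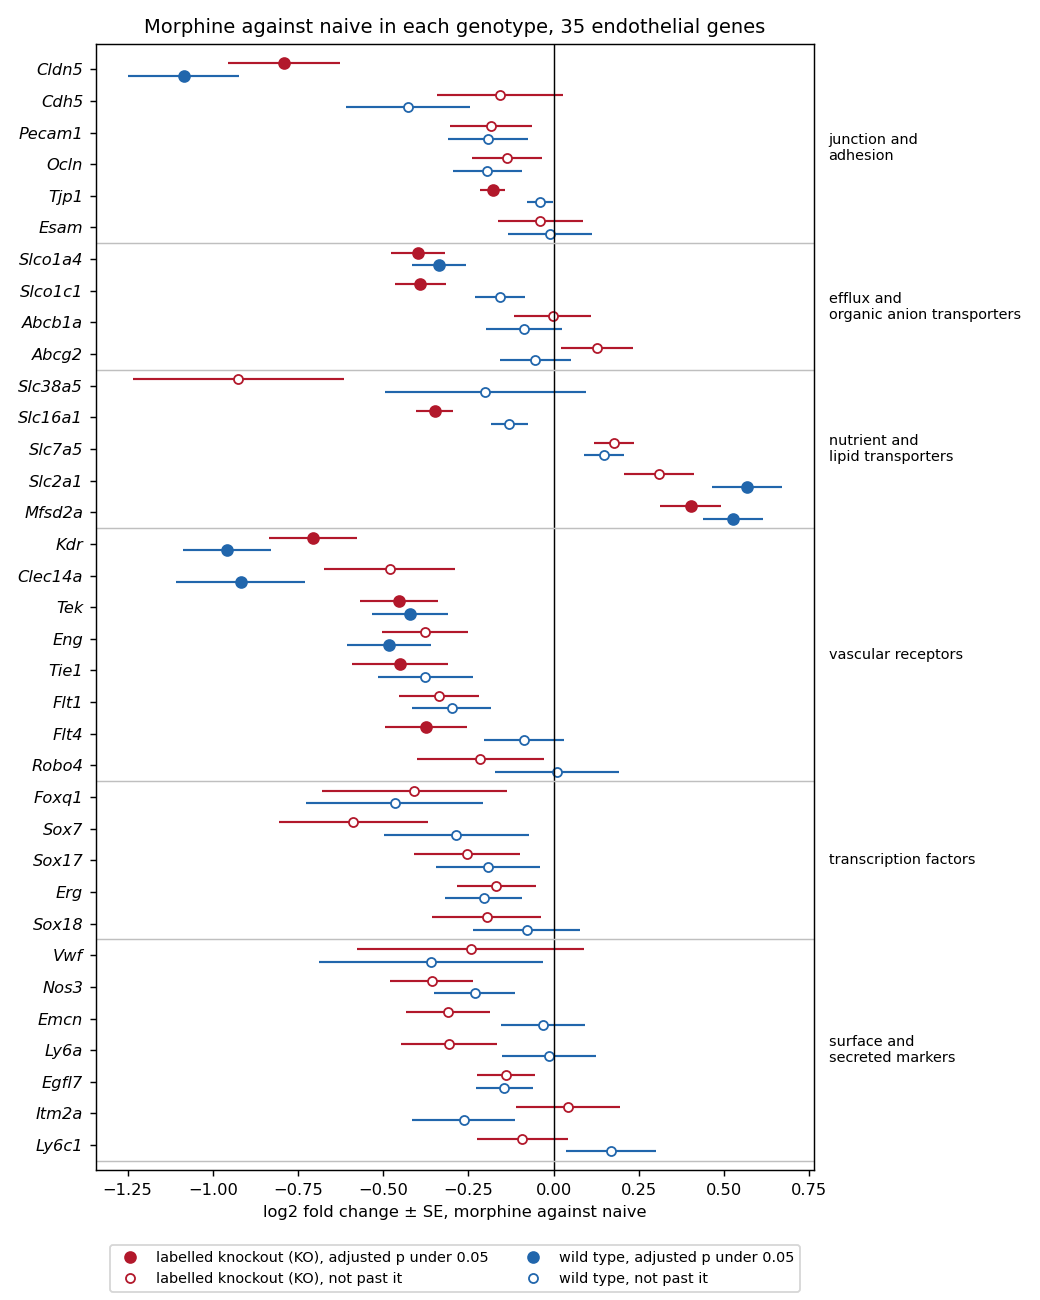
Log2 fold change of morphine over naive with its standard error for each of the 35 genes, grouped by role, in knockout-labelled and wild-type libraries; filled points have an adjusted p under 0.05. Most points lie left of 0, with Cldn5 and Kdr among the farthest, and Slc2a1, Mfsd2a and Slc7a5 lie right of it in both genotypes.

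The knockout-labelled count moved both ways with the libraries kept, from 7 to 17 genes over the fits without 1 library. Without knockout-labelled morphine 3, 17 of the 35 genes were called there, 16 lower and 1 higher, against 12.3% of all genes tested in that fit (6.07% lower and 6.24% higher), and the median log2 fold change was -0.38. The genes then called that were not called with it were Pecam1, Slc38a5, Flt1, Eng, Sox7, Ly6a and Nos3. That library was the highest of its group for 29 of the 35 genes, so leaving it out lowers the morphine mean of those genes. The added lower calls, here and where single genes are described below, show dependence on 1 library and are no added evidence of a fall. Leaving out the 2 libraries of highest meningeal level gave 18 genes in the knockout-labelled comparison (14.8% of all genes) and 6 in wild type (3.07% of all genes), where Eng and Slco1a4 were no longer called and the median was -0.11. Leaving out the 3 highest gave 16 in the knockout-labelled comparison (11.5% of all genes), where Slc2a1 and Slc7a5 then rose and Mfsd2a was no longer called (adjusted p = 0.0974), and 7 in wild type (3.33% of all genes), where Slco1a4 was again not called. In wild type, the count was 5 when naive 1, naive 2, morphine 1, morphine 2 or morphine 4 was left out in turn. The share of all genes called in those fits is not given here.

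Junction and adhesion genes were led by Cldn5, the main claudin of brain endothelial tight junctions. It stood at 11.4, 6.66, 9.35 and 8.61 CPM in knockout-labelled morphine libraries, against 14.9, 16.4, 17.5 and 14.3 CPM in knockout-labelled naive libraries. In wild type it stood at 8.01, 8.04, 8.08 and 7.31 CPM with morphine, against 21.3, 19.3, 13.2 and 13.2 CPM in naive libraries. All 8 morphine libraries lay below all 8 naive libraries, and wild-type naive 1 and 2 were the highest. The log2 fold change was -0.79 ± 0.16 (adjusted p = 0.0069) in knockout-labelled and -1.09 ± 0.16 (adjusted p = 0.00121) in wild-type libraries. Tjp1 encodes the scaffold protein ZO-1, which ties tight junctions to actin and is made by many cell types. It had 118.3, 112.7, 122.1 and 117.4 CPM in knockout-labelled morphine libraries, against 126.5, 136.8, 133.4 and 135.9 CPM in knockout-labelled naive ones, with no overlap. In wild type it had 126.0, 114.6, 124.0 and 120.7 CPM with morphine, against 122.6, 128.2, 127.9 and 120.0 CPM in naive libraries, which overlap. Tjp1 fell in knockout-labelled libraries by a small amount, -0.18 ± 0.04 (adjusted p = 0.00564), and the wild-type value was -0.04 ± 0.04 (adjusted p = 0.587).

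The adhesion genes most often used to mark endothelial cells had smaller estimates than Cldn5. Pecam1 had 13.3, 13.7, 20.4 and 15.2 CPM in knockout-labelled morphine libraries, against 17.5, 19.4, 17.5 and 16.3 CPM in knockout-labelled naive libraries. In wild-type libraries Pecam1 had 15.0, 15.2, 15.7 and 14.8 CPM with morphine, against 18.0, 20.8, 14.9 and 15.7 CPM in naive ones. The groups overlap in each genotype, and morphine 3 is the highest library of the knockout-labelled morphine group. Its log2 fold changes were -0.18 ± 0.12 (adjusted p = 0.369) and -0.19 ± 0.12 (adjusted p = 0.377) in knockout-labelled and wild-type libraries; without knockout-labelled morphine 3, the first was -0.33 ± 0.10 (adjusted p = 0.0344). Cdh5, which encodes the cadherin of endothelial adherens junctions, had 8.13, 7.35, 13.2 and 9.46 CPM in knockout-labelled morphine libraries, against 9.67, 11.8, 10.7 and 10.2 CPM in knockout-labelled naive libraries. For wild type, Cdh5 had 8.82, 7.93, 8.72 and 7.90 CPM with morphine, against 10.7, 16.0, 8.99 and 9.22 CPM in naive libraries, where all morphine libraries were lower and naive 2 was far above the rest. Neither change passed the test, at -0.16 ± 0.18 (adjusted p = 0.652) and -0.43 ± 0.18 (adjusted p = 0.201). Ocln, which encodes the tight junction protein occludin, ranged from 8.08 to 12.2 CPM over all libraries, and Esam, an endothelial adhesion molecule gene, from 8.38 to 14.0 CPM; neither passed the test in any comparison. In all, 2 of 6 junction and adhesion genes fell in knockout-labelled libraries, where 5.83% of all genes fell, and 1 of 6 in wild-type libraries, where 2.07% did.

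Among the 4 efflux and organic anion transporter genes, the organic anion carriers fell and the drug pumps did not pass the test. Slco1a4 encodes a carrier of bile acids, steroid conjugates and thyroid hormone at the brain vessel wall. It had 43.6, 35.2, 43.3 and 41.8 CPM in knockout-labelled morphine libraries, against 53.6, 58.9, 48.8 and 55.0 CPM in knockout-labelled naive ones. In wild type it had 40.5, 38.8, 43.5 and 35.8 CPM with morphine, against 55.5, 52.3, 47.5 and 45.4 CPM in naive libraries. All 8 morphine libraries were below all 8 naive libraries, at -0.40 ± 0.08 (adjusted p = 0.00509) and -0.34 ± 0.08 (adjusted p = 0.0243); the wild-type call was lost in 5 of the 8 fits that left out 1 wild-type library (naive 1 or 2, morphine 1, 2 or 4). Slco1c1, the thyroxine carrier gene, had 27.5, 28.8, 32.3 and 32.0 CPM in knockout-labelled morphine libraries, against 35.4, 42.3, 38.8 and 41.7 CPM in knockout-labelled naive libraries, with no overlap. Slco1c1 had 33.6, 32.0, 33.6 and 34.0 CPM in wild-type morphine libraries, against 41.9, 32.2, 38.4 and 36.6 CPM in wild-type naive ones, where naive 2 lay among the morphine values. It fell in knockout-labelled libraries, -0.39 ± 0.07 (adjusted p = 0.00334), and the wild-type estimate was -0.16 ± 0.07 (adjusted p = 0.236).

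Abcb1a encodes P-glycoprotein, the pump for which morphine is a substrate. It had 27.3, 28.0, 38.3 and 30.4 CPM in knockout-labelled morphine libraries, against 30.6, 33.6, 28.6 and 30.8 CPM in knockout-labelled naive libraries. Wild-type libraries had 34.2, 26.5, 31.6 and 26.9 CPM with morphine, against 34.2, 35.1, 27.2 and 30.5 CPM when naive. The groups overlap in both genotypes, with knockout-labelled morphine 3 the highest of all 16 libraries. The log2 fold change was -0.0025 ± 0.11 (adjusted p = 0.995) in knockout-labelled and -0.09 ± 0.11 (adjusted p = 0.702) in wild-type libraries. No change was detected, and a change of the size of its standard error or larger could have been missed. Abcb1a has a close copy, Abcb1b, with which reads may be shared. Abcg2, the gene of the breast cancer resistance pump, ranged from 12.8 to 19.2 CPM and passed no test.

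Nutrient and lipid transporters split. Mfsd2a encodes the carrier of lysophospholipids with omega-3 fatty acids, which also restrains vesicle transport across the barrier. It had 51.2, 45.8, 50.1 and 44.9 CPM in knockout-labelled morphine libraries, against 39.1, 33.6, 30.8 and 41.1 CPM in knockout-labelled naive libraries. In wild type the levels were 49.7, 48.8, 50.5 and 54.7 CPM with morphine, against 37.2, 33.1, 31.4 and 40.1 CPM in naive libraries. All 8 morphine libraries were above all 8 naive ones, and Mfsd2a rose by 0.40 ± 0.09 (adjusted p = 0.00933) and 0.53 ± 0.09 (adjusted p = 0.00249). Slc2a1 encodes GLUT1, the glucose transporter of the barrier, which astrocytes also make. Its level was 107.6, 130.3, 173.3 and 144.8 CPM in knockout-labelled morphine libraries, against 113.3, 115.8, 101.0 and 117.1 CPM in knockout-labelled naive libraries, with morphine 1 inside the naive range. In wild type its level was 153.5, 152.5, 160.3 and 158.9 CPM with morphine, against 106.7, 104.9, 99.8 and 111.0 CPM in naive libraries, with no overlap. Slc2a1 rose in wild type, 0.57 ± 0.10 (adjusted p = 0.00657), while the knockout-labelled estimate was 0.31 ± 0.10 (adjusted p = 0.0673).

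The lactate and ketone carrier gene Slc16a1 (MCT1), also used by oligodendrocytes, moved the other way. It had 46.9, 46.2, 50.6 and 47.8 CPM in knockout-labelled morphine libraries, against 56.0, 65.1, 61.9 and 60.9 CPM in knockout-labelled naive ones. All morphine libraries were lower there, and Slc16a1 had the smallest adjusted p of the 35 genes in that comparison, at -0.35 ± 0.05 (adjusted p = 0.000801). In wild type, where the groups overlap, it had 45.7, 52.9, 50.9 and 49.4 CPM with morphine, against 54.7, 49.8, 56.4 and 57.0 CPM in naive libraries, at -0.13 ± 0.05 (adjusted p = 0.18). Slc7a5, the gene of the large neutral amino acid carrier LAT1, had 66.2, 70.4, 73.2 and 80.9 CPM in knockout-labelled morphine libraries, against 63.9, 65.3, 61.7 and 66.5 CPM in knockout-labelled naive libraries. Wild-type Slc7a5 levels were 66.2, 67.9, 74.9 and 70.3 CPM with morphine, against 66.7, 58.4, 60.3 and 67.3 CPM in naive libraries. The groups overlap in each genotype, the estimates were 0.18 ± 0.06 (adjusted p = 0.0623) and 0.15 ± 0.06 (adjusted p = 0.163), and the average over genotypes rose by 0.16 ± 0.04 (adjusted p = 0.0122). Slc38a5, the gene of a glutamine carrier, ranged from 1.69 to 5.53 CPM; its largest estimate was -0.92 ± 0.31 (adjusted p = 0.0695) in knockout-labelled libraries, and -1.18 ± 0.32 (adjusted p = 0.0249) without morphine 3.

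**Figure D3:**
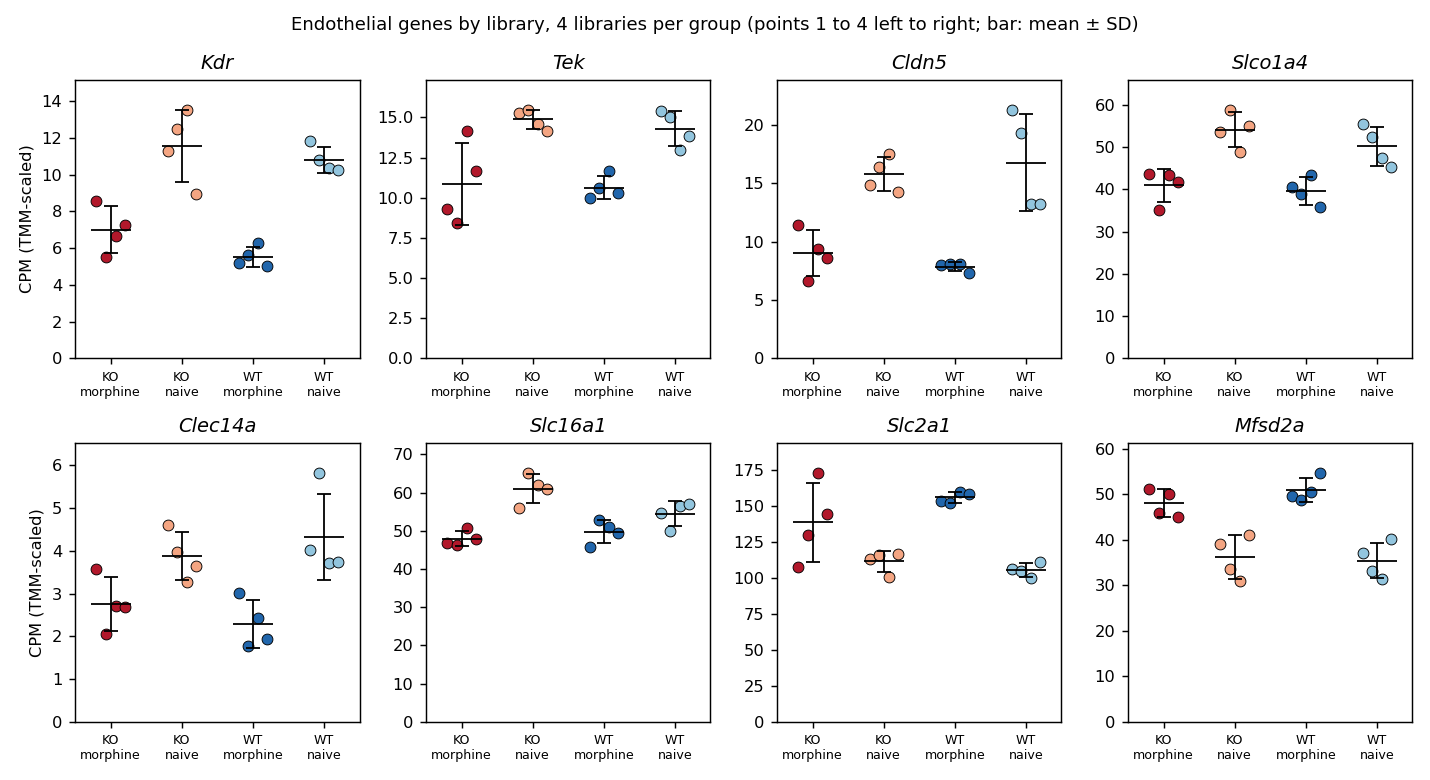
CPM in each of the 16 libraries for 8 endothelial genes, by group (knockout-labelled morphine, knockout-labelled naive, wild-type morphine, wild-type naive), with group mean ± SD. For Kdr, Tek, Cldn5 and Slco1a4 each morphine group lies below its naive group, and for Mfsd2a above it.

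Of the 8 vascular receptors, 4 were called in each genotype, all lower, where 5.83% of all genes fell in knockout-labelled and 2.07% in wild-type libraries. Kdr and Tek were called in both, Tie1 and Flt4 in knockout-labelled libraries only, and Eng and Clec14a in wild type only. Kdr encodes VEGFR2, the main signalling receptor for VEGF-A on endothelial cells. It had 8.57, 5.50, 6.64 and 7.27 CPM in knockout-labelled morphine libraries, against 11.3, 12.5, 13.5 and 8.93 CPM in knockout-labelled naive libraries. In wild type Kdr had 5.19, 5.62, 6.28 and 5.03 CPM with morphine, against 11.8, 10.8, 10.4 and 10.3 CPM in naive libraries. Every morphine library was below every naive library, with wild-type values of at most 6.28 CPM under morphine and at least 10.3 CPM in naive libraries. The log2 fold change was -0.71 ± 0.13 (adjusted p = 0.00242) in knockout-labelled and -0.96 ± 0.13 (adjusted p = 0.000235) in wild-type libraries, and both calls were kept under every alternative tried. Tek, which encodes the angiopoietin receptor Tie2, had 9.30, 8.40, 14.1 and 11.7 CPM in knockout-labelled morphine libraries, against 15.3, 15.5, 14.6 and 14.2 CPM in knockout-labelled naive libraries. For wild type, Tek had 9.96, 10.6, 11.7 and 10.3 CPM with morphine, against 15.4, 15.0, 13.0 and 13.9 CPM in naive ones. The groups did not overlap within either genotype, and knockout-labelled morphine 3 came close to the naive values. Tek fell, at -0.45 ± 0.11 (adjusted p = 0.016) in knockout-labelled and -0.42 ± 0.11 (adjusted p = 0.0408) in wild-type libraries; the first call was lost without naive 2 or morphine 1 (adjusted p up to 0.0544 over the alternatives) and the second in 6 of the 8 fits that left out 1 wild-type library, all but those without naive 4 or morphine 3 (up to 0.111).

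Tie1 encodes the partner receptor of Tie2. It had 6.14, 6.71, 10.3 and 7.11 CPM in knockout-labelled morphine libraries, against 9.60, 11.7, 9.91 and 9.80 CPM in knockout-labelled naive libraries. In wild type it had 6.65, 7.47, 8.40 and 6.31 CPM with morphine, against 11.2, 9.52, 8.22 and 8.78 CPM in naive libraries. Morphine 3 alone overlapped the naive range in each genotype. The estimates were -0.45 ± 0.14 (adjusted p = 0.0461) and -0.38 ± 0.14 (adjusted p = 0.136); the knockout-labelled call was lost when any knockout-labelled library other than morphine 3 was left out (adjusted p up to 0.147) and was -0.62 ± 0.12 (adjusted p = 0.00265) without morphine 3. Flt4, which encodes VEGFR3, the receptor for VEGF-C and VEGF-D, had 3.32, 3.38, 4.38 and 3.92 CPM in knockout-labelled morphine libraries, against 4.31, 5.51, 4.94 and 4.69 CPM in knockout-labelled naive libraries, where morphine 3 overlapped. Its wild-type levels were 3.50, 4.09, 3.57 and 3.78 CPM with morphine, against 4.32, 3.19, 4.09 and 4.33 CPM in naive libraries, which overlap. Flt4 just passed in knockout-labelled libraries, -0.37 ± 0.12 (adjusted p = 0.0496), a call lost in 6 of the 8 fits that left out 1 knockout-labelled library, all but those without naive 1 or morphine 3 (adjusted p up to 0.168), and its wild-type value was -0.09 ± 0.12 (adjusted p = 0.72).

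Flt1 encodes VEGFR1, which binds VEGF-A tightly and limits its supply to VEGFR2. It had 35.8, 36.3, 48.8 and 47.6 CPM in knockout-labelled morphine libraries, against 47.9, 59.4, 52.1 and 53.3 CPM in knockout-labelled naive libraries, and the groups overlap. In wild type all morphine libraries were lower, at 36.3, 36.9, 42.3 and 36.4 CPM with morphine, against 56.9, 42.9, 42.6 and 45.8 CPM in naive libraries. Flt1 passed in neither genotype alone, at -0.34 ± 0.12 (adjusted p = 0.0824) and -0.30 ± 0.12 (adjusted p = 0.167), and fell in the average of both, -0.32 ± 0.08 (adjusted p = 0.0168). Eng, the gene of endoglin, a TGF-beta and BMP co-receptor, had 7.50, 7.98, 11.3 and 9.72 CPM in knockout-labelled morphine libraries, against 11.4, 13.4, 10.7 and 11.8 CPM in knockout-labelled naive libraries. Wild-type Eng stood at 7.95, 9.64, 10.2 and 8.42 CPM with morphine, against 14.1, 14.0, 10.4 and 12.5 CPM in naive libraries, with no overlap. It fell in wild type, -0.48 ± 0.12 (adjusted p = 0.0349), a call lost in the same 5 fits as that of Slco1a4 (adjusted p up to 0.105); the knockout-labelled value was -0.38 ± 0.13 (adjusted p = 0.0623). Clec14a, an endothelial C-type lectin gene linked to vessel sprouting, was low, at 3.58, 2.06, 2.72 and 2.68 CPM in knockout-labelled morphine libraries, against 4.60, 3.98, 3.28 and 3.64 CPM in knockout-labelled naive libraries. In wild type it was at 3.02, 1.78, 2.42 and 1.93 CPM with morphine, against 4.02, 5.83, 3.71 and 3.74 CPM in naive libraries, with no overlap and naive 2 the highest. Clec14a fell in wild type, -0.92 ± 0.19 (adjusted p = 0.00982), and the knockout-labelled value was -0.48 ± 0.19 (adjusted p = 0.119). Robo4, a receptor gene tied to vessel stability, ranged from 2.81 to 5.86 CPM and passed no test, with estimates of -0.22 ± 0.19 and 0.01 ± 0.18 in knockout-labelled and wild-type libraries.

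None of the 5 transcription factor genes passed edgeR's test in any comparison. DESeq2 also called 0, and limma-voom called 1 lower in the average of both genotypes and 0 elsewhere. An unadjusted p under 0.05 was reached by 1 in knockout-labelled and 0 in wild-type libraries, against 25.5% and 20.1% of all genes. They were Sox7, Sox17 and Sox18, which specify vessels, the ETS factor gene Erg, and Foxq1, a forkhead gene of brain endothelium. All 5 had estimates below 0 in each genotype, from -0.59 ± 0.22 for Sox7 to -0.17 ± 0.12 for Erg in knockout-labelled libraries and from -0.47 ± 0.26 for Foxq1 to -0.08 ± 0.16 for Sox18 in wild type. Their levels were low, from 0.438 CPM for Foxq1 to 5.11 CPM for Erg over all libraries, with standard errors of up to 0.27 in the morphine comparisons. In the fit without knockout-labelled morphine 3, Sox7 passed, at -0.80 ± 0.21 (adjusted p = 0.0204). Sox17 lies on chromosome 1 (bases 4490931 to 4497354), close to Rgs20 (bases 4909576 to 5070285). The knockout-labelled over wild-type difference of Sox17 was 0.09 ± 0.15 in naive libraries.

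Of the 7 surface and secreted markers, none passed edgeR's test within a genotype, and Nos3, the endothelial nitric oxide synthase gene, fell in the average of both. Unadjusted, 3 had an edgeR p under 0.05 in knockout-labelled and 0 in wild-type libraries, against 25.5% and 20.1% of all genes. DESeq2 called 1 in knockout-labelled libraries and limma-voom 0. Nos3 had 4.05, 3.49, 5.68 and 4.28 CPM in knockout-labelled morphine libraries, against 5.52, 5.48, 6.30 and 5.13 CPM in knockout-labelled naive libraries. In wild type it had 4.54, 4.37, 4.96 and 4.95 CPM with morphine, against 5.60, 6.35, 4.88 and 5.34 CPM in naive ones, and the groups overlap in both genotypes. The average change was -0.30 ± 0.09 (adjusted p = 0.0233), a call lost without wild-type morphine 2 or knockout-labelled morphine 2 (adjusted p up to 0.0526). It was -0.36 ± 0.12 (adjusted p = 0.0669) and -0.23 ± 0.12 (adjusted p = 0.287) in knockout-labelled and wild-type libraries. Vwf, the gene of the clotting protein von Willebrand factor, had the widest standard error of the 7, at -0.24 ± 0.33 and -0.36 ± 0.33, and levels of 12.0 to 29.8 CPM. Emcn, which encodes the sialomucin endomucin of veins and capillaries, ranged from 3.89 to 6.79 CPM, and Egfl7, a secreted factor gene that hosts a microRNA, from 11.3 to 16.0 CPM. Itm2a, at 46.0 to 77.6 CPM, was highest in wild-type naive 2 and knockout-labelled morphine 3, the libraries of highest meningeal level. The surface antigen genes Ly6c1 (15.2 to 25.3 CPM) and Ly6a (11.0 to 18.4 CPM) belong to a family of near-identical copies, so their counts are uncertain. Without knockout-labelled morphine 3, Nos3 was at -0.49 ± 0.11 (adjusted p = 0.00762) and Ly6a at -0.44 ± 0.13 (adjusted p = 0.0422) in the knockout-labelled comparison.

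Averaged over both genotypes, which reuses the same 16 libraries, morphine changed 15 of the 35 genes, 12 lower and 3 higher (42.9%, against 17.1% of all tested genes, of which 8.03% lower and 9.02% higher). The 3 that rose, Slc2a1, Mfsd2a and Slc7a5, are all nutrient or lipid transporters, and 6 of the 12 that fell are vascular receptors. Averages were -0.94 ± 0.12 (adjusted p = 8.13e-05) for Cldn5 and -0.83 ± 0.09 (adjusted p = 1.14e-05) for Kdr, against 0.46 ± 0.06 (adjusted p = 0.000155) for Mfsd2a. Separation was cleanest for 4 genes whose 8 morphine libraries did not overlap the 8 naive libraries: Cldn5, Slco1a4 and Kdr, all lower, and Mfsd2a, higher. Of all tested genes, 1.07% were lower and 1.42% higher in that way. Within genotypes, 7 members were lower and 1 higher without overlap in knockout-labelled libraries (all genes 8.78% and 8.27%), and 8 lower and 3 higher in wild type (all genes 5.09% and 5.96%). The mean centred log2 level of the 35 genes was -0.27, -0.24 and -0.13 in knockout-labelled morphine 2, 1 and 4, and 0.20 in morphine 3, against 0.10 to 0.26 in knockout-labelled naive libraries. It was -0.16 to -0.05 in wild-type morphine, against -0.10 to 0.23 in wild-type naive libraries. Morphine 3 thus sat with the naive libraries of its genotype, and wild-type naive 3 sat among the morphine libraries.

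**Figure D4:**
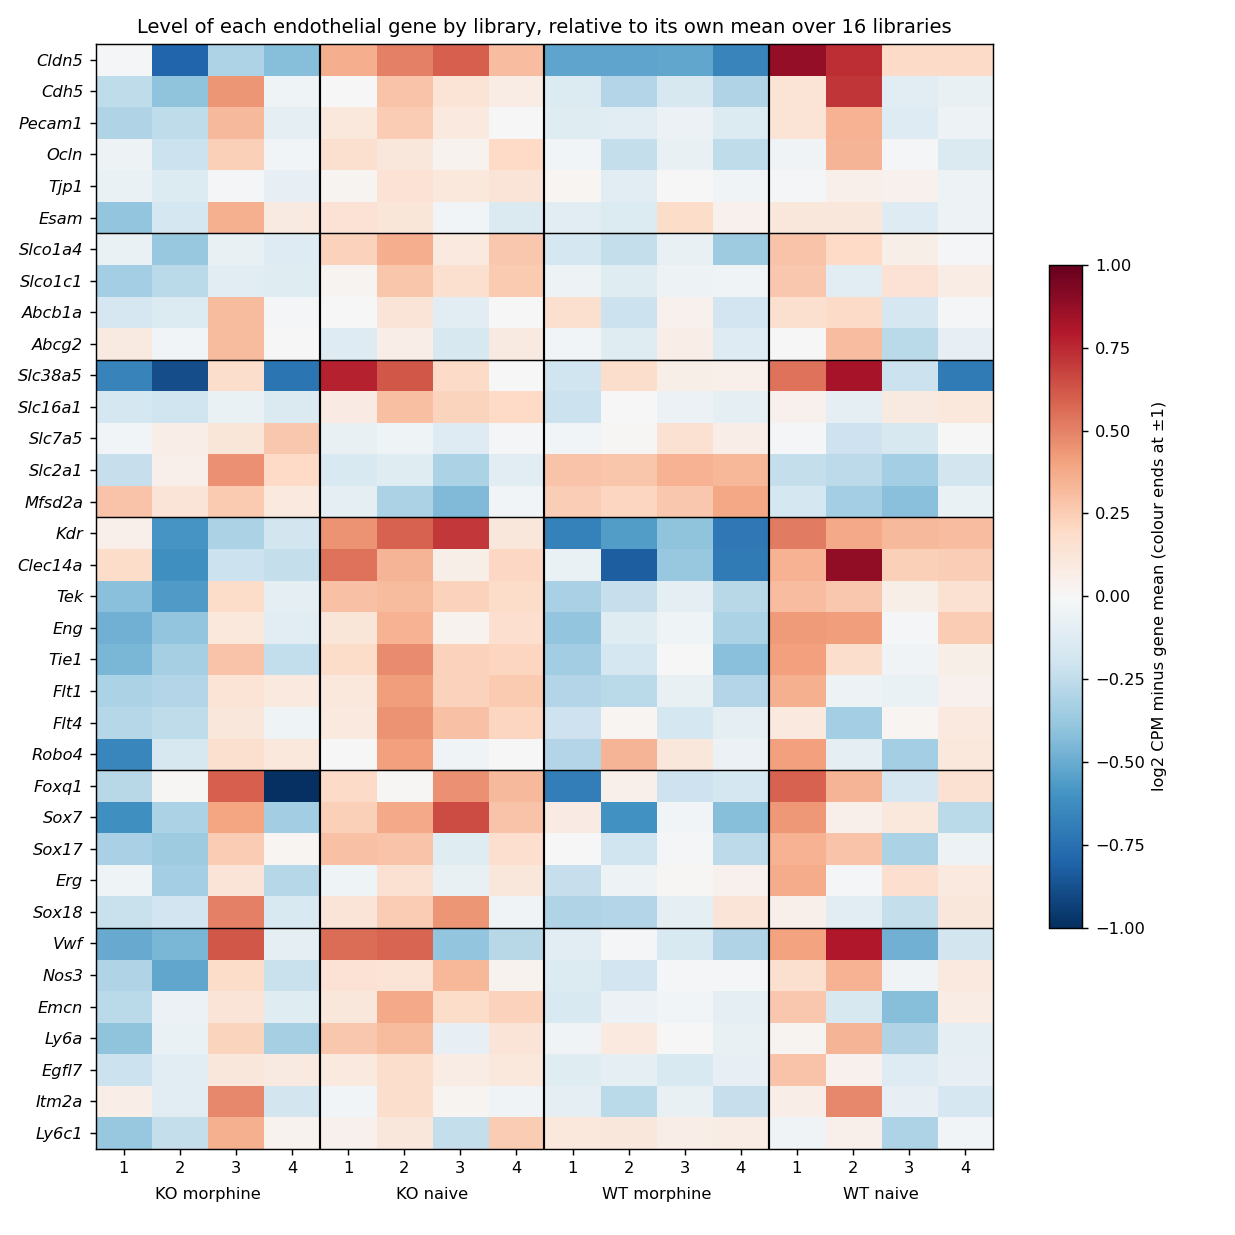
Log2 CPM of the 35 genes in each library minus the gene's mean over 16 libraries, with colour ending at 1 log2 unit either way; libraries run from knockout-labelled morphine to wild-type naive. Most rows are below their mean in morphine libraries, except in knockout-labelled morphine 3, and Slc2a1, Mfsd2a and Slc7a5 run the other way.

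Members differed in their ratio to Pecam1. Set against Pecam1 in the same library, a description chosen after the values were seen and not tested, Cldn5 averaged -0.80 ± 0.41 log2 units in knockout-labelled morphine libraries, against -0.17 ± 0.12 in knockout-labelled naive ones (SD, n = 4). In wild type that ratio was -0.95 ± 0.05 with morphine, against -0.07 ± 0.22 in naive libraries, with no overlap there; the knockout-labelled ranges overlap. Kdr relative to Pecam1 differed between morphine and naive by -0.53 in knockout-labelled and -0.79 in wild-type libraries, and Tek by -0.29 and -0.24. Mfsd2a differed by 0.61 and 0.71 and Slc2a1 by 0.49 and 0.75, both upward. By contrast Egfl7 differed from Pecam1 by 0.05 and 0.04, and Esam by 0.14 and 0.16.

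Between genotypes none of the 35 genes passed the test in edgeR, and DESeq2 and limma-voom also called 0 of them; edgeR called 0.906% of all genes in naive and 0.53% in morphine libraries. Knockout-labelled against wild type in naive libraries, 4 of the 35 had an unadjusted p under 0.05, against 12.9% of all genes, and the largest of these estimates were 0.29 ± 0.12 (adjusted p = 0.279) for Flt4 and 0.28 ± 0.12 (adjusted p = 0.325) for Emcn. In morphine libraries 1 of the 35 had one, against 9.64% of all genes; it was Kdr, at 0.35 ± 0.13 (adjusted p = 0.381). Kdr had 8.57, 5.50, 6.64 and 7.27 CPM in knockout-labelled morphine libraries, against 5.19, 5.62, 6.28 and 5.03 CPM in wild-type morphine libraries, and the groups overlap. The morphine effect in knockout-labelled libraries minus that in wild type passed for none of the 35 genes (0% of all genes), with 3 under an unadjusted p of 0.05, against 12.1% of all genes. These were Slc16a1 at -0.22 ± 0.08 (adjusted p = 0.295), Tjp1 at -0.14 ± 0.05 (adjusted p = 0.317) and Slco1c1 at -0.23 ± 0.10 (adjusted p = 0.388), each lower with morphine in knockout-labelled libraries. Genes called in one genotype only are therefore not shown to differ between genotypes. For Clec14a the difference of effects was 0.44 ± 0.27 (adjusted p = 0.536), and for Slc2a1 -0.26 ± 0.14 (adjusted p = 0.501). The median of that difference over the 35 genes was -0.04, and -0.20 to 0.02 over the alternatives, lowest without the 2 libraries of highest meningeal level.

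Other genes of the growth factor pathways around these receptors moved in both directions. Of 23 tested VEGF, angiopoietin and Notch pathway genes, 3 rose and 3 fell in knockout-labelled libraries, where 11.5% of all genes were called, and 2 rose in wild type, where 4.41% were. Vegfa, which encodes the main ligand of Kdr and is made largely by astrocytes and neurons, averaged 65.7 ± 1.79 CPM in knockout-labelled morphine, against 89.1 ± 5.92 CPM in knockout-labelled naive libraries. In wild type Vegfa averaged 71.0 ± 1.63 CPM with morphine, against 78.0 ± 6.39 CPM in naive libraries. It fell in knockout-labelled libraries, -0.44 ± 0.05 (adjusted p = 0.000146), and not past the threshold in wild type, -0.13 ± 0.05 (adjusted p = 0.159). The difference between these effects was -0.30 ± 0.07 (adjusted p = 0.174). For that difference edgeR called 0 of the 23 genes and DESeq2 called 1, lower. Knockout-labelled against wild type in naive libraries, edgeR called 0 of the 23 and DESeq2 called 1, higher. Pgf, the gene of the placental growth factor that binds VEGFR1, rose by 0.61 ± 0.10 (adjusted p = 0.0013) in knockout-labelled and 0.36 ± 0.10 (adjusted p = 0.0469) in wild-type libraries, and Notch4, an endothelial Notch receptor gene, by 0.60 ± 0.14 (adjusted p = 0.00982) and 0.53 ± 0.13 (adjusted p = 0.0329). Both wild-type calls were lost in several fits without 1 library (adjusted p up to 0.131 for Pgf and 0.114 for Notch4).

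Of 27 tested genes of Wnt and Norrin signalling at the barrier, 4 fell and none rose in knockout-labelled libraries, where 11.5% of all genes were called. In wild type 4 fell and 1 rose, where 4.41% of all genes were called. Without the 2 libraries of highest meningeal level, 2 fell and 1 rose in wild type, where 3.07% of all genes were called. Nkd1, a feedback inhibitor gene switched on by the pathway, fell in both, -0.45 ± 0.09 (adjusted p = 0.00421) and -0.43 ± 0.09 (adjusted p = 0.00927). Apcdd1, a gene of a Wnt inhibitor, fell in wild type, -0.42 ± 0.08 (adjusted p = 0.00396), with -0.22 ± 0.08 (adjusted p = 0.0872) in knockout-labelled libraries. The ligand gene Wnt7a fell in wild type, -0.51 ± 0.12 (adjusted p = 0.0174), and Fzd4, the receptor gene for Norrin, rose, 0.40 ± 0.09 (adjusted p = 0.0169); both calls were lost without naive 3 or morphine 2, among other fits (adjusted p up to 0.0884 for Wnt7a and 0.0637 for Fzd4). Wnt7a was also lost without the 2 or the 3 libraries of highest meningeal level. Of 39 further endothelial genes, 3 rose and 3 fell in knockout-labelled and 2 rose and 5 fell in wild-type libraries. Their median log2 fold changes were -0.10 and -0.07, with 13 and 11 of the 39 above 0. The same 11.5% and 4.41% of all genes stand beside this list and the arterial and venous lists below. Unadjusted, 25.5% of all genes in knockout-labelled and 20.1% in wild-type libraries had an edgeR p under 0.05. Without the 2 libraries of highest meningeal level, 3 rose and 11 fell in knockout-labelled libraries, where 14.8% of all genes were called. Ets1, an endothelial and lymphocyte transcription factor gene, fell, at -0.54 ± 0.12 (adjusted p = 0.00794) and -0.69 ± 0.12 (adjusted p = 0.00217) in knockout-labelled and wild-type libraries, and so did the iron exporter gene Slc40a1, at -0.40 ± 0.07 (adjusted p = 0.00184) and -0.40 ± 0.07 (adjusted p = 0.00265). Rgcc, a cell cycle regulator gene high in capillaries, rose by 0.32 ± 0.09 (adjusted p = 0.0214) and 0.71 ± 0.08 (adjusted p = 7.38e-05), and was lower in knockout-labelled than in wild-type morphine libraries, -0.45 ± 0.08 (adjusted p = 0.0165). Its knockout-labelled rise was lost without naive 2, naive 3, morphine 3 or the 3 libraries of highest meningeal level (adjusted p up to 0.0735), and its genotype call without wild-type morphine 2 or knockout-labelled morphine 1, 2 or 4 (adjusted p up to 0.077). Of 9 arterial genes 2 fell in knockout-labelled libraries, Unc5b at -0.67 ± 0.11 (adjusted p = 0.00286) and Hey1 at -0.16 ± 0.04 (adjusted p = 0.0134); the Hey1 call was lost without naive 2, morphine 4 or the 3 libraries of highest meningeal level (adjusted p up to 0.0557). In wild type 0 of the 9 passed with any of the 3 tools, and 2 had an unadjusted p under 0.05. Of 7 tested venous genes none passed edgeR's test in either genotype, with 1 under an unadjusted p of 0.05 in knockout-labelled and 2 in wild-type libraries; DESeq2 called 1 in wild type and limma-voom 0.

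Markers of other cells were counted in the same way, beside 11.5% of all genes called in knockout-labelled and 4.41% in wild-type libraries. An unadjusted edgeR p under 0.05 was reached by 25.5% and 20.1% of all genes. Of 15 pericyte and smooth muscle genes, 2 fell in each genotype; their summed level was 210.0 to 328.8 CPM in knockout-labelled morphine, against 253.1 to 295.5 CPM in knockout-labelled naive libraries, and 225.4 to 245.0 CPM in wild-type morphine, against 238.7 to 366.6 CPM in wild-type naive libraries. Pdgfrb, the pericyte receptor gene, fell, at -0.35 ± 0.08 (adjusted p = 0.0112) in knockout-labelled and -0.73 ± 0.08 (adjusted p = 4.05e-05) in wild-type libraries, and was lower in knockout-labelled than in wild-type naive libraries, -0.39 ± 0.08 (adjusted p = 0.021). That genotype call was lost in 8 of 17 alternatives (adjusted p up to 0.0795): the replicate block, only the groups compared, without the 2 libraries of highest meningeal level, and without wild-type naive 1, 2 or 3 or knockout-labelled naive 1 or 4. Of 12 microglia genes, 3 fell in knockout-labelled and 2 in wild-type libraries, led by the fractalkine receptor gene Cx3cr1 at -0.49 ± 0.07 (adjusted p = 0.000309) and -0.61 ± 0.07 (adjusted p = 3.1e-05). Without the 3 libraries of highest meningeal level, where 11.5% and 3.33% of all genes were called, 5 and 3 of the 12 microglia genes fell. Their summed level was 223.6 to 256.2 CPM in knockout-labelled morphine, against 257.3 to 285.7 CPM in knockout-labelled naive libraries, and 219.3 to 240.8 CPM in wild-type morphine, against 245.6 to 296.7 CPM in wild-type naive libraries. The morphine and naive ranges of that sum do not overlap within either genotype. The median log2 fold change of the 12 microglia genes was -0.21 in knockout-labelled and -0.25 in wild-type libraries. None of 14 meningeal genes passed in edgeR, DESeq2 or limma-voom in either genotype (0 in knockout-labelled and 1 in wild-type libraries had an unadjusted p under 0.05), with median log2 fold changes of 1.27 in knockout-labelled and -1.45 in wild-type libraries. Without the 3 libraries of highest meningeal level those medians were -0.02 and 0.03. Of 10 serotonin neuron genes, 9 rose in knockout-labelled libraries and 0 passed in wild type with any of the 3 tools (0 under an unadjusted p of 0.05). Their summed level was 594.8 to 1788 CPM in knockout-labelled morphine, against 166.7 to 407.9 CPM in knockout-labelled naive libraries, and 732.2 to 950.4 CPM in wild-type morphine, against 267.5 to 915.3 CPM in wild-type naive libraries. No pericyte, meningeal, microglia or serotonin marker was at 0 in any library. Of 10 astrocyte genes, 2 fell in knockout-labelled and 1 in wild-type libraries, and of 5 tested red blood cell genes none passed edgeR's test in either; 1 in knockout-labelled and 3 in wild-type libraries had an unadjusted p under 0.05, and DESeq2 called 2 in wild type. Of 16 genes induced by glucocorticoid hormone, 15 rose in knockout-labelled and 14 in wild-type libraries. The part of these cell types, of the hormone-induced genes and of library depth in the endothelial differences was not tested, beyond the fits without the libraries of highest meningeal level.

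**Figure D5:**
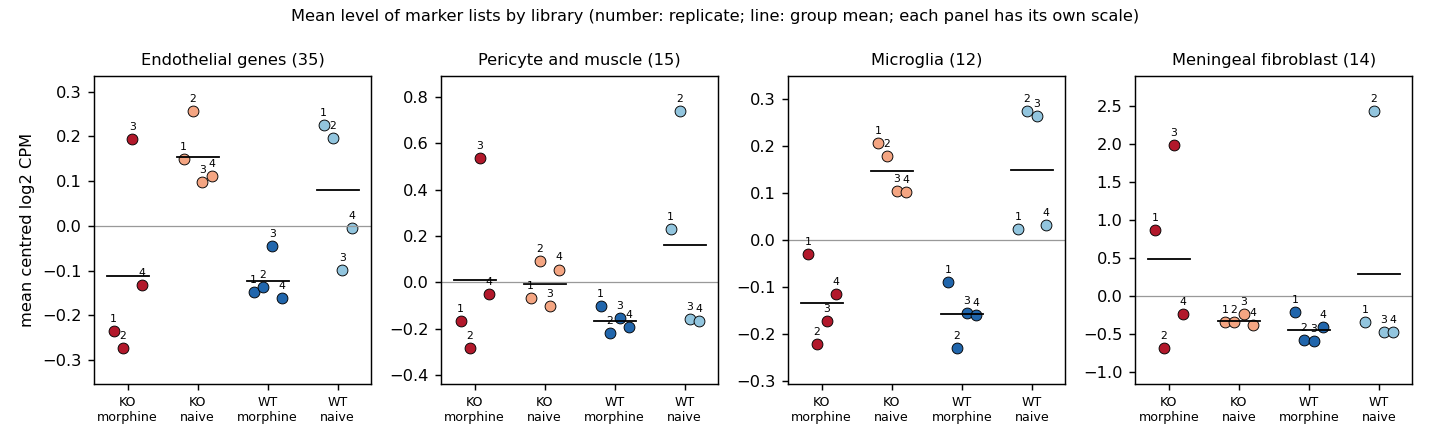
Mean centred log2 CPM of the 35 endothelial genes and of pericyte (15), microglia (12) and meningeal fibroblast (14) genes in each library; numbers are replicates, lines are group means, and each panel has its own scale. Knockout-labelled morphine 3 is the highest of its group for endothelial, pericyte and meningeal genes but not for microglia genes.

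Some of these counts may carry reads of overlapping genes, because the library kit does not mark the strand. Exons of Foxq1 overlap A530084C06Rik over 3200 bases, those of Nos3 overlap Gm15587 and Atg9b, those of Sox17 overlap Gm37587 over 804 bases, and those of Abcb1a overlap Gm42686 over 553 bases, all on the other strand. Overlaps of 105 bases or fewer on the other strand touch Slc2a1, Eng and Egfl7, and Egfl7 shares 264 bases with Gm20532 on its own strand. Cldn5, Kdr, Tek, Slco1a4, Mfsd2a and Slc16a1 have no exon overlap in the annotation used.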

How the data were processed

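PolyA RNA was sequenced from periaqueductal gray punches of male mice, 2 animals pooled per library and 4 libraries per group; RNA was extracted with TRIzol and the library kit, TruSeq RNA v2, does not mark the strand (protocols in the labels). Per the submitters' processing notes, HTSeq produced the deposited counts against mm10, and limma was among the tools; which aligner, annotation release and strand option were set is not given in the sources used here. Reads that HTSeq tallied to no gene (38.2 to 40.6% of each total) were dropped from library sizes and tests. The 37 mitochondrial genes stood at 0 in every library. Totals over genes were 19.1 to 55.0 M, and intervals drawn from counts alone would cover counting error only.

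Gene symbols, positions and exon lengths came from GENCODE M21 on GRCm38, the assembly of mm10 (37607 of 38924 identifiers matched), and promoter windows from RefSeq on GRCm38.p6. Counts were filtered with filterByExpr (minimum count 10), scaled by TMM and tested by quasi-likelihood in edgeR (4.0.16, under R 4.3.3, robust) with all 16 libraries and 1 mean per group in the model, with Benjamini-Hochberg adjustment over all 18111 tested genes and a threshold of 0.05. The common biological coefficient of variation was 0.0835. CPM are TMM-scaled. Mean centred list levels add 0.01 CPM before the log2, and ratios to Pecam1 add nothing. The fit was tested on simulated data.

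The 35 members, their roles, the related gene lists, the motifs and the tests were chosen with earlier results of these data known. Values in every library are given for the 16 members called in any comparison and for Pecam1, Cdh5, Slc2a1 and Abcb1a; from related lists, called genes of smallest p and genes needed to describe a ligand, receptor or cell type are named. Libraries within a group differed by more than counting error (chi-square per gene at least 3.72). Alternatives were DESeq2's size factors and Wald test (1.42.0), limma-voom (limma 3.58.1), no filter, a stricter filter (1 CPM in 8 libraries), only the groups compared, a replicate block and leaving out each library; leaving out the 2 or 3 libraries of highest meningeal level was added after the data were seen.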

Additional observations from a re-analysis of the deposited data

Results flagged for a closer look

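Of 144 sets of 4 libraries examined for a single library far from the other 3, 7 were picked out, and chance alone picks about 1 in 20, or 7.2. Sox18 stood at 4.02 CPM in knockout-labelled morphine 3, against 2.44 to 2.55 CPM in the other 3 libraries of the group. Slc38a5 stood at 3.52 CPM in the same library, against 1.69 to 1.96 CPM in the others. Cldn5 was lowest in wild-type morphine 4, at 7.31 CPM, against 8.01 to 8.08 CPM, a gap that is small beside the distance to the naive libraries. Flt1 was 42.3 CPM in wild-type morphine 3, against 36.3 to 36.9 CPM. Tie1 was 11.7 CPM and Robo4 5.86 CPM in knockout-labelled naive 2, against 9.60 to 9.91 CPM and 4.32 to 4.43 CPM in the others. Clec14a was 5.83 CPM in wild-type naive 2, against 3.71 to 4.02 CPM in the other wild-type naive libraries.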

How the results depend on the processing

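No value that passed its test changed direction under any alternative. Of the members' estimates that did not pass, 4 of 25 in the knockout-labelled and 6 of 27 in the wild-type morphine comparison changed sign under at least 1 alternative (knockout-labelled Abcb1a and wild-type Robo4 among them), as did 16 and 17 of 35 between genotypes in naive and morphine libraries and 18 of 35 in the interaction. In the knockout-labelled morphine comparison, with 10 members called beside 11.5% of all genes, DESeq2's Wald test called 16. The fits without the 2 or the 3 libraries of highest meningeal level called 18 and 16, beside 14.8% and 11.5% of all genes. Leaving out each library gave 7 to 17, the 17 without morphine 3, where 12.3% of all genes were called. In wild type, with 8 called beside 4.41% of all genes, leaving out each library gave 5 to 8 and other settings 6 to 8. The average over genotypes, with 15 called beside 17.1% of all genes, gave 14 to 22. Genotype and interaction counts were 0 throughout. The median of the interaction over the members moved to -0.20 without the 2 libraries. Replicate numbers did not pair the libraries: libraries sharing a number had correlations of deviations of -0.283 to 0.133, and 2 of 16 correlated best with their own number. With the replicate block, 8 members were called in the knockout-labelled, 6 in the wild-type and 16 in the average comparison. The share of all genes called is not given here for DESeq2, the replicate block or most fits without 1 library. From the values given here, a change of member count in those fits cannot be told from a change in calls over all genes. Depth limits the low genes most, such as Sox7 and Foxq1, where counts reached 14 and 17. Pools of 2 animals, the absence of a labelled vehicle group, and counts that sum all cell types limit what the differences can be assigned to.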
